A study of Homo sapiens with 2 samples.

Results

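The genes described here are 10 of the 84 target genes on a quantitative PCR panel for human apoptosis, namely 6 ligands of the tumour necrosis factor (TNF) family, 3 receptors of the family and the cytokine IL10. The ligands are CD40LG (well D05), CD70 (D06), FASLG (E05), LTA (E10), TNF (F07) and TNFSF8 (G05), the receptors are CD27 (D03), CD40 (D04) and TNFRSF9 (G03), and IL10 is in well E09. They were chosen by plate position, as genes known mainly from lymphocytes and antigen-presenting cells, and not by their measured values. They were measured in LNCaP, an established epithelial cell line of human prostate adenocarcinoma, with 1 untreated control sample and 1 sample treated with 500 µg/mL C-PC for 24 h. C-PC is C-phycocyanin in the deposited column names, the blue light-harvesting protein of cyanobacteria. The comparison asked whether transcript levels differed between treated and untreated cells. With 1 sample per group, no difference below has a replicate check, no test was made and no p-value is given.

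The deposited tables identify wells by plate position. Gene names here follow the alphabetical layout of the catalogue panel PAHS-012Z, which the labels name, and were not checked against a gene table of the array. In that layout all 84 target symbols run in alphabetical order from the first to the last target position, and all 84 are current RefSeq symbols. Every gene name below holds only if the plate followed this layout. The panel holds no marker of prostate or epithelial identity, so the labelled cell type was not checked.

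TNF family ligands are mostly made as trimers on the cell surface and signal through receptors of the matching family. CD27, CD40 and TNFRSF9 (4-1BB) have no death domain and recruit TRAF adaptors, which lead to NF-kB, whereas FASLG engages FAS, a receptor with a death domain that starts apoptosis. On lymphocytes and antigen-presenting cells these pairs give costimulation, survival or deletion signals. IL10 is an anti-inflammatory cytokine outside the TNF family.

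Promoter sequences from RefSeq (GRCh38.p14) matched 6 of the 10 genes, namely CD27, FASLG, IL10, LTA, TNF and TNFRSF9. CD27 and TNFRSF9 are shown because they were the 2 genes detected in the control alone, and TNF because it crossed the detection threshold earliest of the 10. Each run is the 250 bases before the annotated gene start, with matches to the searched motifs in capitals. The CD27 window is chr12:6443642-6443891 on the plus strand, the TNFRSF9 window is chr1:7940840-7941089 on the minus strand, and the TNF window is chr6:31575315-31575564 on the plus strand.
CD27: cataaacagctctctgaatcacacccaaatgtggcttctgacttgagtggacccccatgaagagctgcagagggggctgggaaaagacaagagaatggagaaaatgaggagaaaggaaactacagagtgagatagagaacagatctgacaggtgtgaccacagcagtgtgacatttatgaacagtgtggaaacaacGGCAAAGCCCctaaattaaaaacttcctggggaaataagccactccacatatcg
TNFRSF9: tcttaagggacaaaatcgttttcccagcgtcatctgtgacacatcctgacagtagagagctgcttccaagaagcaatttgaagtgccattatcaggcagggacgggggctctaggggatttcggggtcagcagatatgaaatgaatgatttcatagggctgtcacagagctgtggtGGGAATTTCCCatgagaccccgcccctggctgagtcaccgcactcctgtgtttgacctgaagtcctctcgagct
TNF: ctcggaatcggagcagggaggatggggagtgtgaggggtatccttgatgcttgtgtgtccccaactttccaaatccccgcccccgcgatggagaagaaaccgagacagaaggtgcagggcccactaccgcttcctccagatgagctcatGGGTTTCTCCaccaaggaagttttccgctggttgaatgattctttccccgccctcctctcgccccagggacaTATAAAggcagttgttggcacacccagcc
The motifs were a loose form of the NF-kB site, GGG and CC separated by any 5 bases, and TATAAA, the TATA box, each searched on both strands. CD27 had 1 NF-kB match, on the minus strand, TNF had 1 on the plus strand, and TNFRSF9 had 2 that overlap on opposite strands. TNF also had a TATA box beginning 29 bases before the start, while CD27 and TNFRSF9 had no match to that motif. Among 35116 human windows of this length, 54.4% held the NF-kB pattern and 10.7% the TATA box, and this loose NF-kB pattern is thus common. The measurements below do not bear on factor binding.

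Values are threshold cycles (Ct), the number of PCR cycles a well needs to reach a set fluorescence, and a delay of 1 cycle means a 2-fold lower level at full amplification efficiency. A Ct of 35 or later was treated as a bound on the level. Ct values of different genes come from different assays, and their order is an order of crossing, not of transcript numbers. Most of the 10 genes crossed late in untreated cells. Their control Ct values ran from 29.0 to 37.4 with a median of 34.3, against 17.4 to 37.0 with a median of 25.5 in the other 74 target wells. A control Ct of 33 or later was found for 8 of the 10, compared with 16 of all 84 target wells (19.0%). CD70 crossed latest of all 84 in the control, and CD40LG crossed latest of all 84 in the C-PC sample. TNF and CD40 were the only 2 of the 10 to cross before cycle 33 in the control. For comparison, BCL2A1, CASP5, TNFRSF1B and NAIP, 4 other genes of the panel that leukocytes express, had control Ct values of 33.3, 33.8, 33.0 and 25.9. These 4 were picked by hand and do not stand for all such genes of the panel.

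**Figure D1:**
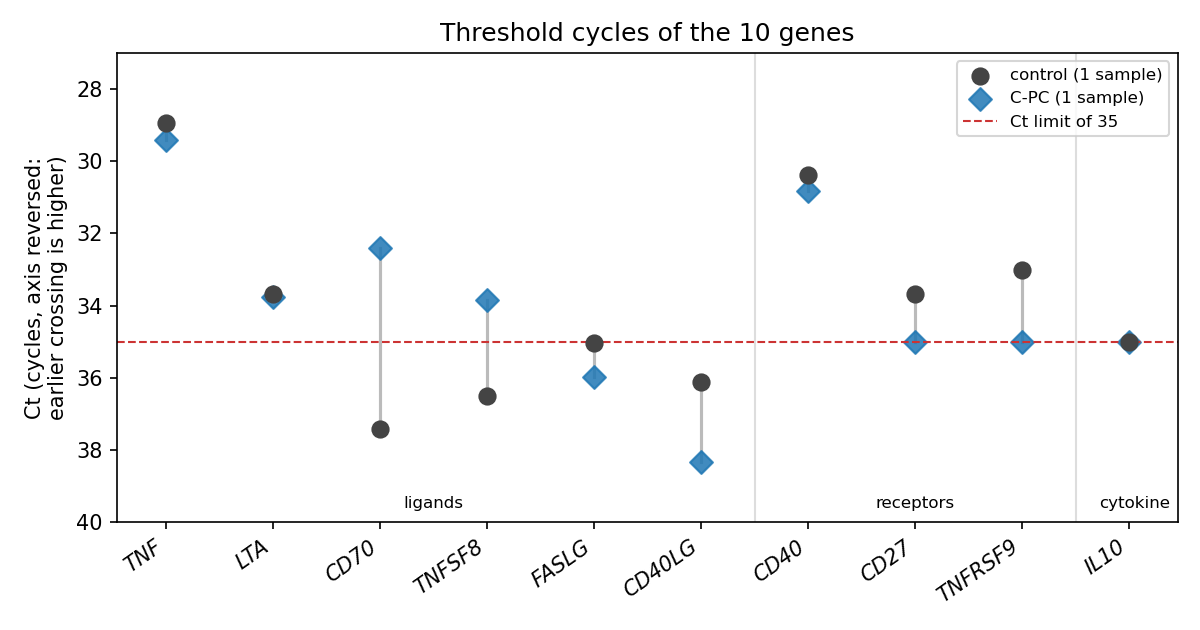
Threshold cycle (Ct, cycles, axis reversed so that earlier crossing is higher) of the 10 genes in the control sample (grey circles) and the C-PC sample (blue diamonds), 1 sample each, with ligands, receptors and IL10 apart. CD70 and TNFSF8 lie beyond the dashed limit of 35 in the control and before it in C-PC, CD27 and TNFRSF9 go from before the limit to exactly 35, and TNF, LTA and CD40 lie before it in both samples.

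The 10 genes fell into 4 detection classes. A Ct under 35 in both samples was found for 3 of them (TNF, LTA and CD40), compared with 72 of the 84 target wells (85.7%). A Ct under 35 in the C-PC sample only was found for CD70 and TNFSF8. These were the only 2 such wells among all 84 (2.38%). Only a well at 35 or later in the control can fall in this class, which holds for 5 of the 10 genes and 7 of all 84 wells. Of the 2 other target wells in that position, 0 were in the class. So few wells cannot set the 10 genes apart. A Ct under 35 in the control only was found for CD27 and TNFRSF9, against 5 of the 84 wells (5.95%). CD40LG, FASLG and IL10 were at 35 or later in both samples, as were 5 of the 84 wells (5.95%). Each sample thus had 5 of the 10 genes under the limit, 3 of them in common.

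Folds were scaled to the mean of the 5 reference wells, H01 to H05, which are ACTB, B2M, GAPDH, HPRT1 and RPLP0 by the layout. All 5 crossed later in the C-PC sample, by 0.76 ± 0.39 cycles (SD over the 5 wells), from 0.21 for RPLP0 to 1.21 for HPRT1. Since the 72 target wells detected in both samples had a median shift of 0.24 cycles, folds relative to that plate median are lower by 0.51 on the log2 scale. The SD of 0.39 is given beside each log2 fold. It is the spread between single reference wells, the same for every gene, and not the error of their mean. It covers neither the measurement of the gene's own well nor variation between cultures.

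Counting bounds, treated cells had a level higher by 2-fold or more for 2 of the 10 genes and lower by 2-fold or more for 1, while 4 had a smaller fold or bound, and 3 had no fold. Over all 79 target wells with a fold or a bound, 17 were higher by that much (21.5%) and 2 lower (2.53%). With the plate median, 2 of the 10 were higher and 2 lower, against 9 (11.4%) and 8 (10.1%) of the 79. The count of higher genes, 2 of the 7 with a fold or a bound, is thus too small to be set apart from the 21.5% of the panel. None of the 3 genes measured in both samples passed 2-fold in either direction, compared with 15 higher (20.8%) and 1 lower (1.39%) of the 72 such wells. Their median log2 fold was 0.33, against 0.51 for the 72. Before scaling, all 3 crossed later in the treated sample, as did 47 of the 72 (65.3%).

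**Figure D2:**
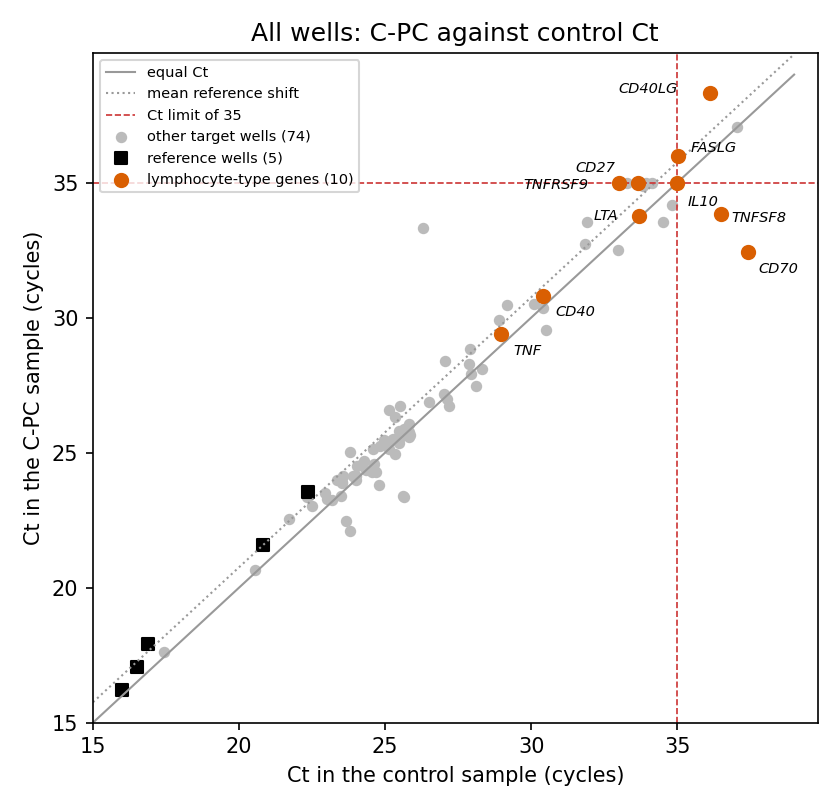
Ct in the C-PC sample against Ct in the control (cycles) for the 10 lymphocyte-type genes (orange, named), the other 74 target wells (grey) and the 5 reference wells (black squares), with lines for equal Ct, for the mean reference shift of 0.76 cycles and for the limit of 35. Of the 7 target wells with a control Ct of 35 or later, only CD70 and TNFSF8 lie below the horizontal limit. A control Ct of 33 or later is seen for 8 of the 10 genes.

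Among the ligands, CD70 had the largest difference of the 10 genes in Ct as deposited. Since its control Ct is past the limit, that difference gives no order among the genes with a bound. CD70 is the ligand of CD27 and is carried by activated lymphocytes and some tumour cells. It crossed at cycle 37.4 in untreated and at 32.4 in treated cells, 5.01 cycles earlier with C-PC. The control value lay past the limit and the C-PC value well before it. In RNA of a whole culture, more cells with the transcript and more transcript per cell cannot be told apart. With the control set to 35, its level in treated cells was higher by at least 10.1-fold, a log2 fold of at least 3.34 ± 0.39. The bound lay between 6.97-fold and 13.9-fold over the single reference wells, and scaling to the plate median gave 7.10-fold. The authors' deposited table gives CD70 a fold of 54.3, which takes the control Ct of 37.4 as measured.

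TNFSF8, the ligand of CD30, differed in the same direction. It crossed at 36.5 without and at 33.8 with C-PC, a difference of 2.67 cycles, with only the C-PC value before the limit. The level in treated cells was higher by at least 3.79-fold, a log2 fold of at least 1.92 ± 0.39, or by at least 2.65-fold when scaled to the plate median. Over the single reference wells the bound lay between 2.60-fold and 5.19-fold. The fold in the authors' deposited table is 10.7 for TNFSF8. CD30 and TNFSF9, the partners of TNFSF8 and TNFRSF9, are not on this panel.

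TNF and LTA, the neighbouring genes for TNF and lymphotoxin alpha, were detected in both samples and differed little between them. No annotated gene lies between them (0 in the RefSeq table). TNF, the earliest of the 10 to cross, had a control Ct of 29.0 and a C-PC Ct of 29.4. Its log2 fold was 0.31 ± 0.39 with the 5 reference wells, between -0.23 and 0.76 over the single reference wells, and -0.21 with the plate median. The direction for TNF thus changed with the reference. LTA had a control Ct of 33.7 and a C-PC Ct of 33.8. Its log2 fold was 0.68 ± 0.39, between 0.14 and 1.13 over the single reference wells, and 0.17 with the plate median, but -0.08 without a reference. LTA was the highest of the 3 genes detected in both samples and passed 2-fold with HPRT1 as the only reference. Both of its Ct values were late. The 3 other target genes nearest to LTA in log2 fold were LTBR at 0.71, CASP4 at 0.71 and BNIP3L at 0.64. That likeness rests on a single difference between 2 samples.

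FASLG and CD40LG gave no fold. FASLG, the ligand of FAS on cytotoxic lymphocytes, had a control Ct of 35.03 and a C-PC Ct of 36.0. CD40LG, the ligand of CD40 on activated helper T cells, had a control Ct of 36.1 and a C-PC Ct of 38.3. All 4 values lay at 35 or later, where a difference between samples was not taken as measured. The authors' deposited table gives folds of 0.859 for FASLG and 0.362 for CD40LG. Their deposited ratio for FASLG in the control corresponds to a Ct of 35, not to the deposited 35.03.

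The 3 receptors were all later in the C-PC sample. TNFRSF9, a costimulatory receptor of activated T cells, had a control Ct of 33.0 and a C-PC Ct of exactly 35. The level in treated cells was lower by at least 2.36-fold, a log2 fold of at most -1.24 ± 0.39, or by at least 3.37-fold when scaled to the plate median. With HPRT1 as the only reference the bound was 1.72-fold, which does not reach 2-fold, and with GAPDH as the only reference it was also just short, at a log2 fold of -0.97. CD27, the receptor of CD70 on T cells and memory B cells, had a control Ct of 33.7 and a C-PC Ct of exactly 35. The level in treated cells was lower by at least 1.49-fold with the reference wells and by at least 2.13-fold with the plate median, and only the second bound reaches 2-fold. The meaning of a deposited value of exactly 35 is not stated in the sources used here, and both bounds hold only if the level was at or below that of Ct 35. CD40, a receptor that B cells, dendritic cells and many epithelial cells carry, had a control Ct of 30.4 and a C-PC Ct of 30.8. Its log2 fold was 0.33 ± 0.39 with the 5 reference wells and -0.18 with the plate median. CD40 therefore differed by less than the spread of the reference wells.

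IL10 stood at exactly 35 in both samples and has no fold. The fold of 1.68 that the authors' deposited table gives for IL10 matches the shift of the reference wells within 0.01 on the log2 scale. A Ct of exactly 35 occurred for 1 of the 10 genes in untreated and for 3 in treated cells, compared with 1 and 6 of all 84 target wells.

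**Figure D3:**
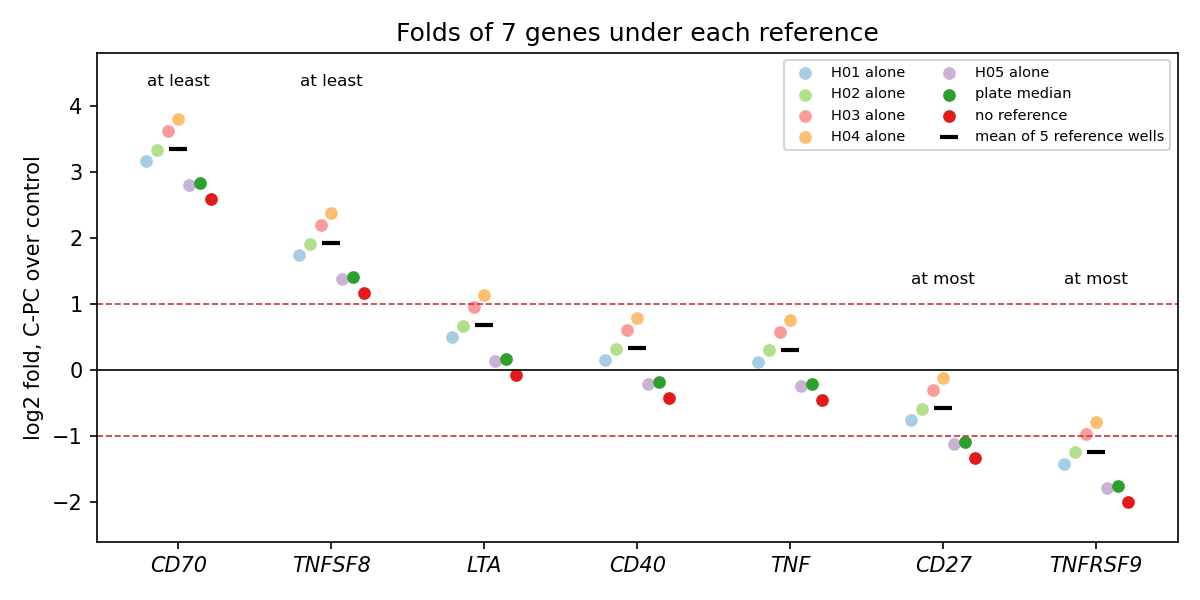
Log2 fold (C-PC over control) of the 7 genes with a fold or a bound, by reference: the mean of the 5 reference wells (black bar), each reference well alone, the plate median and no reference. Dashed lines mark 2-fold. CD70 and TNFSF8 lie above 2-fold with every reference shown, TNF, CD40 and LTA lie on both sides of 0 (LTA is below 0 only without a reference), and TNFRSF9 falls short of 2-fold with H03 or H04 alone.

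Considered as pairs, CD70 and its receptor CD27 fell in opposite detection classes. CD70 was detected in the C-PC sample only and CD27 in the control only. For CD27 this rests on a C-PC Ct of exactly 35, and its level was lower by at least 1.49-fold. With HPRT1 as the only reference that bound was 1.09-fold. For the pair CD40LG and CD40, the ligand was undetected in both samples and the receptor was detected in both. The size of the differences before scaling was compared among wells with a control Ct of 33 or later, a comparison chosen after the values were seen. A Ct past 35 was set to 35, and wells at 35 or later in both samples were left out. The 6 other target wells that remained differed between the samples by 0.65 to 1.73 cycles. The 5 such wells of the 10 genes differed by 0.076 to 2.59 cycles. The values were 2.59 cycles or more for CD70, 1.995 or more for TNFRSF9, 1.33 or more for CD27, 1.17 or more for TNFSF8 and 0.076 for LTA. Since the 1.73 of the other wells, that of BCL2A1, is such a lower bound too, these sizes give no order among the bounded wells. Of the 5 wells of the 10 genes, 2 were earlier and 3 later with C-PC, and of the other 6, 2 were earlier and 4 later.

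The 10 other receptors and ligands of the TNF family on the panel had control Ct values from 23.2 to 34.2. Of these, 9 were detected in both samples and 5 were higher by 2-fold or more with C-PC, beside 20.8% of the 72 detected wells. The 9 are themselves part of the 72. Of the 5, TNFRSF21 only just passed, at a log2 fold of 1.01 ± 0.39. With the plate median 3 of the 9 were higher, beside 9.72% of the 72, and 0 were lower with either reference, beside 1.39% with the reference wells and 6.94% with the plate median. The remaining gene, TNFRSF11B, a decoy receptor, went from a Ct of 34.2 to exactly 35, a log2 fold of at most -0.09 ± 0.39. Their median log2 fold was 1.01, against 0.51 for the 72 detected wells. FAS, the receptor of FASLG, was the highest of the 9, with a control Ct of 25.6, a C-PC Ct of 23.4 and a log2 fold of 2.96 ± 0.39. TNFSF10 (TRAIL), a ligand that induces apoptosis, was the lowest of the 9, at -0.17 ± 0.39. FAS was thus 7.81-fold higher in the treated sample with the reference wells and 5.47-fold higher with the plate median. Its ligand FASLG was past the limit in both samples. Of the receptors of TNF and LTA, TNFRSF1A had Ct values of 24.2 and 24.5 and a log2 fold of 0.38 ± 0.39. TNFRSF1B, found mainly on leukocytes, had Ct values of 33.0 and 32.5, and its log2 fold was 1.23 ± 0.39 with the reference wells and 0.71 with the plate median. LTBR, the receptor for lymphotoxin complexes that contain LTA, had a log2 fold of 0.71 ± 0.39. TNFRSF25, a receptor with a death domain whose ligand is not among these genes, had a log2 fold of 0.83 ± 0.39.

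The 6 signalling adaptors listed, TRADD, TRAF2, TRAF3, FADD, CRADD and RIPK2, were all detected in both samples. Of these, 0 passed 2-fold in either direction, beside 20.8% higher and 1.39% lower of the 72 detected wells. TRAF2, an adaptor of CD27, CD40 and TNFRSF9, was the lowest at -0.44 ± 0.39, and TRADD, the adaptor of TNFRSF1A, was the highest at 0.96 ± 0.39. Of 5 genes for NF-kB and its known targets and regulators, 4 were detected in both samples. The other, BCL2A1, an anti-apoptotic target of NF-kB, went from a Ct of 33.3 to exactly 35 and was lower with C-PC by at least 1.96-fold with the reference wells and by at least 2.80-fold with the plate median. BIRC3, a target of NF-kB, was the highest of the 4 and 2.34-fold higher with the reference wells, but 1.64-fold higher with the plate median. BIRC2, an inhibitor of apoptosis that binds TRAF2, was the lowest of the 4 at 0.63 ± 0.39.

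**Figure D4:**
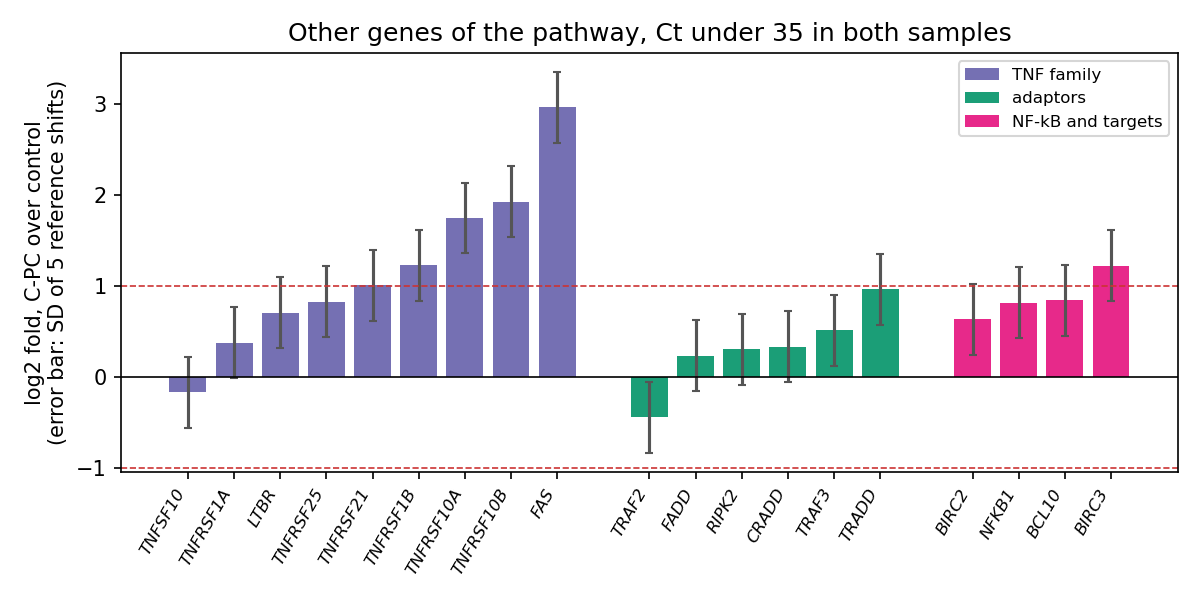
Log2 fold (C-PC over control, scaled to the 5 reference wells) of the other TNF family genes, the adaptors and the NF-kB genes that were detected in both samples. Bars are single values from 1 sample per group, error bars are the SD of the 5 reference shifts (0.39), and dashed lines mark 2-fold. FAS is highest, and no adaptor passes 2-fold.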

How the data were processed

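Per the labels' protocols, total RNA of each sample (1000 ng) was reverse transcribed and amplified for 40 cycles with SYBR Green in 3 runs. Of the 3 deposited tables, per the file headers the first gives Ct values without normalization and the second the authors' fold changes normalized to housekeeping genes. The third holds a deposited ratio, which for 82 of 84 target wells matched, to within 0.01 in log2, the level computed from the Ct values against the mean of the 5 reference wells (H01 to H05). The sources used here do not say how the runs were combined. Each group therefore counts as 1 sample and the spread between runs is unknown.

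A log2 fold was minus the Ct difference (C-PC minus control) plus the mean difference of the 5 reference wells. A Ct of 35 or later was set to 35, giving a bound where it occurred in 1 sample and no fold where it occurred in both. The calculation was tested on simulated data without noise and with the same shift in every well, which checks the arithmetic only. All 10 genes, the reference wells, receptors of their ligands, the extremes of each pathway list and the 3 genes nearest LTA are named. The 10 genes were set by plate position and not by their measured values. Earlier results of these data were nevertheless known when the genes and lists were chosen. Alternatives were single reference wells, the plate median, no reference, the authors' folds, a Ct limit of 32, of 37 or absent, and a fold threshold of 1.5 or 3. PCR gives no read depth, and the number of samples limits the precision. Pandas 2.3.3, numpy 2.4.6 and, for plots, matplotlib 3.10.9 were run under Python 3.11.15.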

Additional observations from a re-analysis of the deposited data

How the results depend on the processing

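Detection depended on the Ct limit. Of the 10 genes, 3 counted as detected in both samples at a limit of 35, 2 at 32, 8 at 37 and 10 with no limit. The 2 genes at least 2-fold higher in C-PC stayed 2 or became 3 under every reference, threshold and limit tried except a limit of 32, which gave 0 because CD70 and TNFSF8 are then past it in both samples. Leaving out bounds, an alternative chosen after seeing the data, gave 0 higher and 0 lower. The 1 gene at least 2-fold lower became 0 with H03 or H04 alone, with a limit of 32 and with a 3-fold threshold, and 2 with H05 alone, the plate median, no reference and no Ct limit. The median log2 fold of the genes detected in both samples, 0.33, moved to 0.79 when HPRT1 (H04) was the only reference, to -0.21 when RPLP0 (H05) was, to -0.18 by the plate median and to -0.42 without scaling. Of 24 alternative folds of TNF, LTA and CD40, 12 stayed within 1 SD of the reference shifts and 7 were below 0. Each alternative moved all 3 genes by the same amount, so the 12 reflects the choice of reference and not the stability of each gene. No paired analysis was possible because there is a single sample per group, and runs could not be left out, since 1 Ct stands for all runs of a well. Late Ct values and the missing run spread limit what can be seen for 8 of the 10 genes.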

Other observations

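The deposited control Ct values of FASLG and CD40LG carry fewer decimals than the rest. The control value of FASLG is written with 2 decimals and that of CD40LG with 8, while 85 of the 89 control wells have at least 13 decimals. The other 2 exceptions in the control are IL10, at exactly 35, and CASP14, written with 2 decimals. In the C-PC sample the 6 wells with fewer than 13 decimals are those at exactly 35. Of the deposited ratios of the 10 genes, 9 matched the Ct values within 0.01 on the log2 scale, and FASLG did not.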
